A study of Mus musculus with 11 samples.

Results

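Mouse embryonic fibroblasts (MEFs) that carry the Trex1 D18N allele were compared with wild-type (WT) MEFs by RNA-seq. The 3 D18N and 3 WT libraries were chosen by the genotype in their labels and are 6 of the 11 libraries of the series. The series set MEFs with different changes of the mouse Trex1 gene beside each other: Trex1D18N (D18N, 3 libraries), Trex1-/- (3 libraries), Trex1p212fs (p212fs, 2 libraries) and WT (3 libraries). All were derived from embryos of day 13.5 and taken at passage 2, and the growth protocol speaks of primary as well as spontaneously immortalized MEFs without saying which library is which. The labels name RNeasy for the extraction and SMARTer for the mRNA libraries. No transgene, Cre driver or treatment is given for any group. The labels do not say whether replicates of 1 genotype are separate embryos, so the p-values below measure the spread between these libraries. By the sex patterns given below, the D18N libraries and the Trex1-/- libraries were not all from 1 embryo, while the spread within WT and within p212fs may be technical.

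TREX1 is an exonuclease on the endoplasmic reticulum that degrades DNA in the cytosol. Where DNA is not degraded there, the sensor cGAS makes cGAMP, which activates STING and through it the kinase TBK1 and the factor IRF3, and type I interferons are then made. Interferons signal through JAK kinases and a complex that holds STAT2 and IRF9 to a large set of interferon-stimulated genes. D18N replaces an aspartate of the active site that binds a metal ion, and in people it causes a dominant form of familial chilblain lupus. A MEF culture is mostly fibroblasts of the body wall and limbs, but it can hold myoblasts, macrophages, glia, mesothelium and epithelium from the same embryo.

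The deposited values are raw counts of reads per gene. They were scaled here to CPM, the count as a part of the library total after scaling by TMM factors. Values are listed in the order of the replicate numbers. Library totals ran between 17630576 and 18061244 counts in D18N and between 16059426 and 18441695 counts in WT. Trex1 itself had 0 counts in all 11 libraries, so its counts check no label. The fibroblast label was checked with Col1a1, the main chain of type I collagen, which had 30120, 33160 and 27050 CPM in D18N, against 23520, 21990 and 23160 CPM in WT. Xist, the RNA of the inactive X chromosome, had 1044, 0.0569 and 0 CPM in D18N, against 425, 903 and 580.0 CPM in WT. The Y-linked gene Ddx3y had 0, 77.5 and 80.0 CPM in D18N and 0 in all WT libraries. D18N replicate 1 shared the Xist pattern of the WT libraries and D18N replicates 2 and 3 had the Y pattern, so genotype and sex pattern were partly confounded. A count of list members is therefore also given with a term for the sex pattern in the model where that term moved it by over 1.5 times and by at least 2 genes. In Trex1-/-, replicate 2 had the Xist pattern and replicates 1 and 3 the Y pattern, and both p212fs libraries had the Y pattern. The term for the sex pattern therefore rests on the differences within D18N and Trex1-/-, the genotypes with both patterns.

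Of 16990 genes tested across the genome, 2065 were higher in D18N than in WT (12.2% of those tested) and 2238 were lower (13.2%), or 25.3% in either direction (edgeR quasi-likelihood test, Benjamini-Hochberg adjusted p under 0.05). Of these, 1013 higher genes and 756 lower genes differed at least 2-fold. The 3 D18N libraries lay wholly above the 3 WT libraries for 23.1% of the genes and wholly below them for 21.8%. Whichever of the 6 libraries was left out, 699 higher and 742 lower genes kept their call. The count of called genes rested on single libraries: it was 1662 when D18N replicate 2 was left out and 2809 when D18N replicate 1 was. It was 2249 for WT replicate 1 and 2097 for WT replicate 3. A term for the sex pattern left 2379 genes, and D18N replicate 1 alone against WT left 693. With that library alone, most list counts of at least 5 genes fell by over 1.5 times, while most of those among muscle lists did not. It was also the D18N library with the highest summed thick filament level (1990 CPM, against 762 and 821 CPM in replicates 2 and 3). The kept muscle calls are therefore no separate check on the sex pattern. An offset for transcript length and GC content, added after the data were seen, turned the split to 1617 higher and 2899 lower. For single genes below, "up to" gives the highest adjusted p among the libraries named after it, each of which ended the call when it was left out, and "down to" gives the lowest where leaving a library out made a call. A range in brackets after a count of list members gives its lowest and highest value when single libraries were left out.

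**Figure D1:**
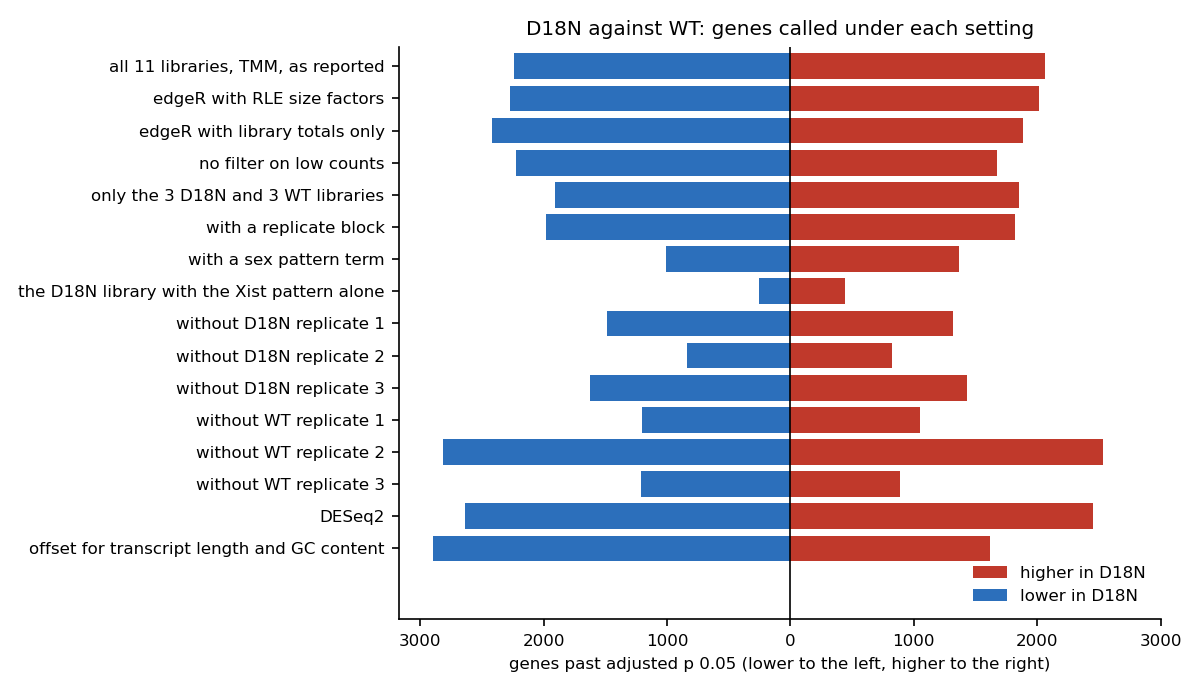
Genes called in D18N against WT under each setting, with genes lower in D18N to the left of 0 and genes higher in D18N to the right. With all 11 libraries, 2065 genes were higher and 2238 lower; the number ran from 693 with 1 D18N library to 5350 without WT replicate 2.

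Genes were grouped into 91 lists under 11 themes. Muscle genes were higher in 82 of 114 tested members and lower in 1, with a median log2 fold change of 4.19, against a median of 0.04 over all genes tested. Genes of macrophages and other immune cells were lower in 35 of 47 and higher in 1 (median -2.60). Proliferation genes were lower in 68 of 132 and higher in 6 (median -0.88). Interferon and innate immunity genes were higher in 29 of 159 and lower in 8 (median 0.79), matrix genes higher in 37 of 164 and lower in 18 (median 0.32), and ion channel genes higher in 14 of 55 and lower in 4 (median 0.49). Metabolism and stress genes were higher in 42 of 343 and lower in 71 (median -0.12), and markers of other cell types higher in 19 of 137 and lower in 35 (median -0.46). Signalling genes (55 higher and 31 lower of 352), cytoskeleton and junction genes (10 higher and 15 lower of 72) and positional genes (14 higher and 15 lower of 127) had medians of 0.11, -0.12 and -0.01. Leaving out single libraries kept the muscle count between 71 and 85 and the immune cell count between 30 and 37. It moved the higher interferon count from 8 without WT replicate 3 up to 78 without Trex1-/- replicate 2. The lower proliferation count moved from 23 without D18N replicate 2 up to 88 without Trex1-/- replicate 1, and the lower metabolism count from 32 without D18N replicate 2 up to 113 without WT replicate 2. With the sex pattern term these were 86, 18 and 33. Without D18N replicate 2, the higher counts were 20 for matrix, 25 for signalling, 8 for ion channel, 5 for cytoskeleton and 5 for positional genes, and the lower ones 9, 15, 2, 3 and 6, with 23 for other cell types. Without WT replicate 3, 18 metabolism genes and 9 markers of other cell types were higher. Ion channel genes gave 8 higher and 2 lower with the sex pattern term, and the lower interferon count was 4 with it. In a bulk sample, fewer cells of a type and less RNA per cell cannot be told apart.

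**Figure D2:**
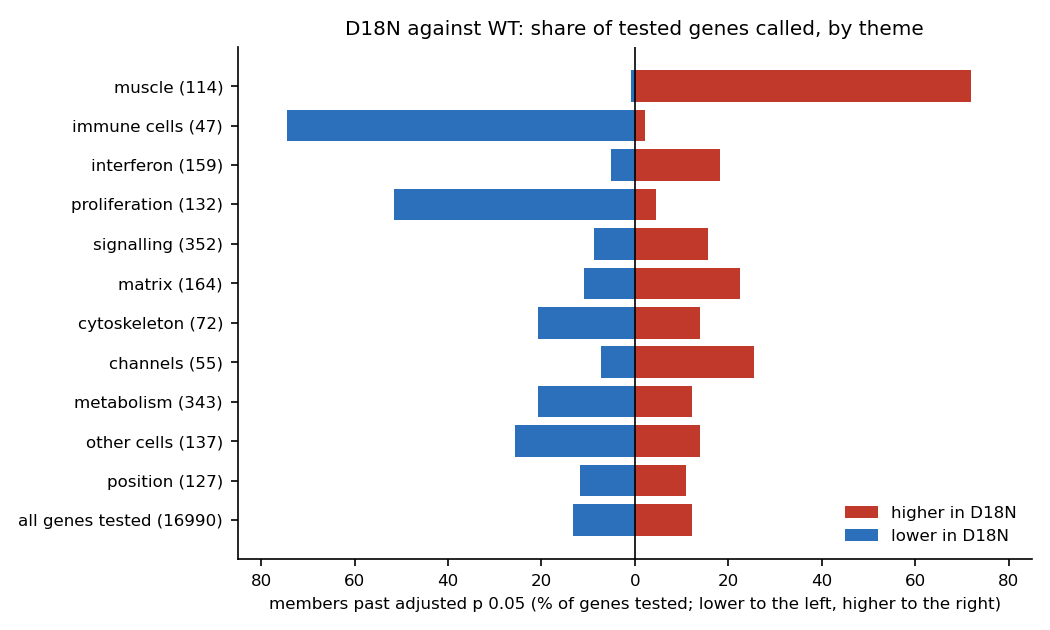
Share of the tested genes of each theme that passed an adjusted p of 0.05 in D18N against WT, with lower genes to the left of 0 and higher genes to the right; the number tested is in brackets. Over all 16990 genes the shares were 12.2% higher and 13.2% lower, while 82 of 114 muscle genes were higher and 35 of 47 immune cell genes lower.

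Skeletal muscle genes had some of the largest fold changes. Myog, the factor that drives myoblasts into terminal differentiation, had 56.8, 24.5 and 23.4 CPM in D18N, against 0, 0.122 and 0 CPM in WT, or 909-fold higher with a 95% counting interval of 251 to 7510 over the summed counts. Myod1, the factor that commits cells to the muscle lineage, had 20.6, 9.61 and 7.32 CPM in D18N, against 0, 0.0611 and 0 CPM in WT, or 653-fold higher with a 95% counting interval of 117 to 25800. Uty, a Y-linked gene named after its value was seen, followed the sex pattern and was 994-fold higher with a 95% counting interval of 178 to 39300. In Myog and Myod1 the WT libraries were at or near 0, and D18N replicate 1 was over 2 times as high as replicates 2 and 3. With these 2, 6 of 11 myogenic regulators were higher (lowest 3 without D18N replicate 1, highest 7 without WT replicate 2). Mef2c, a partner of these factors, was present in both genotypes, with 82.5, 32.7 and 41.8 CPM in D18N, against 11.8, 19.4 and 16.2 CPM in WT (log2 fold change 1.73 ± 0.36, adjusted p = 0.00942). Mymk, which encodes the membrane protein that lets myoblasts fuse, had 41.5, 17.0 and 19.7 CPM in D18N, against 0.346, 0 and 0.108 CPM in WT (log2 fold change 7.35 ± 0.63, adjusted p = 9.68e-05). The promoters of a subunit of the muscle acetylcholine receptor and of a myosin light chain are shown because these genes are low or absent in WT and clearly present in D18N. The 250 bases upstream of each start are from the RefSeq promoter table (build GRCm38.p6), 5′ to 3′ on the gene's strand. Capitals mark CAGCTG, a form of the E-box read by the MyoD family, whose letters are the same on both strands:
Chrng (chr1:87205561-87205810, plus strand): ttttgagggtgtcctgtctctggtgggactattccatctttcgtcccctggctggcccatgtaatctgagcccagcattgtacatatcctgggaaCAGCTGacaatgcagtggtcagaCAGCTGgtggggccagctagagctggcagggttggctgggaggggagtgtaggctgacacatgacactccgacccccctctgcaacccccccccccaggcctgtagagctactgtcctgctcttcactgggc
Mylpf (chr7:127211358-127211607, plus strand): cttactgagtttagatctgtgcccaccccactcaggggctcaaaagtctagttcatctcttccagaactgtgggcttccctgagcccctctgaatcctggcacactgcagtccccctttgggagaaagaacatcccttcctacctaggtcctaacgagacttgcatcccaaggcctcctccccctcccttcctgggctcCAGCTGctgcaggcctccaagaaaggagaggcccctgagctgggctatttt
CAGCTG stood in 4 of 8 promoters found for the neuromuscular junction list and in 5 of 15 for the thick filament list, and in 3450 of 27025 promoters of that length (12.8%). A match of letters is a description and not a binding site.

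Chrng, the fetal subunit of the muscle acetylcholine receptor, had 38.0, 15.98 and 14.6 CPM in D18N, against 0.115, 0 and 0 CPM in WT, or 597-fold higher with a 95% counting interval of 165 to 4930. Mylpf, the fast myosin light chain that carries the second promoter above, had 183, 67.7 and 86.0 CPM in D18N, against 1.61, 0.856 and 1.03 CPM in WT (log2 fold change 6.58 ± 0.44, adjusted p = 4.44e-05). Myh3, the embryonic myosin heavy chain, had 556, 224 and 239 CPM in D18N, against 0.980, 0.978 and 2.23 CPM in WT (log2 fold change 7.91 ± 0.52, adjusted p = 4.44e-05). Neb, the giant ruler of the thin filament, had 102, 50.6 and 55.5 CPM in D18N, against 0.691, 1.59 and 0.814 CPM in WT (log2 fold change 6.07 ± 0.38, adjusted p = 4.44e-05). All 3 D18N libraries stood far above all 3 WT libraries for each of these genes, and D18N replicate 1 was the highest library of each. The thick filament and M-band list was higher in 15 of 16 members, the thin filament in 14 of 18, the Z-disc in 12 of 13, excitation-contraction coupling in 13 of 15 and the neuromuscular junction in 8 of 10. Cryab, a small heat shock protein of the Z-disc that other cells also make, was the member that was lower, with 50.2, 57.1 and 43.0 CPM in D18N, against 129, 58.7 and 78.8 CPM in WT (log2 fold change -0.83 ± 0.23, adjusted p = 0.0261, up to 0.0777 without D18N replicate 1, 2 or 3 or WT replicate 1). The summed thick filament level was 1990, 762 and 821 CPM in D18N, against 11.9, 15.5 and 19.4 CPM in WT. Tpm1, a tropomyosin that fibroblasts also make, had 724, 1021 and 989 CPM in D18N, against 1266, 1136 and 1418 CPM in WT (log2 fold change -0.48 ± 0.18, adjusted p = 0.0647, down to 0.0393 without WT replicate 2 or Trex1-/- replicate 2). Genes outside the lists with the same pattern included Mylk4, a myosin light chain kinase, with 20.6, 10.3 and 7.20 CPM in D18N and 0 counts in all WT libraries (at least 221-fold higher). Art1, an ADP-ribosyltransferase of muscle that also had 0 counts in WT, was at least 94.8-fold higher. The lower thin filament count was 3 without WT replicate 2. Cryab no longer passed with the sex pattern term. Tpm1 passed with the sex pattern term (adjusted p = 0.0128) and with DESeq2 (adjusted p = 0.0376). Cryab no longer passed with only the D18N and WT libraries fitted.

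Macrophage genes were lower in D18N. Csf1r, the receptor for the growth factor that keeps macrophages alive, had 6.02, 4.32 and 4.59 CPM in D18N, against 24.5, 51.7 and 43.7 CPM in WT (log2 fold change -3.00 ± 0.35, adjusted p = 0.000508). Spi1, the factor PU.1 that specifies myeloid cells, had 0.966, 0.284 and 0.680 CPM in D18N, against 7.78, 13.4 and 10.2 CPM in WT (log2 fold change -4.01 ± 0.46, adjusted p = 0.00039). Lyz2, which encodes the lysozyme of macrophages, had 89.3, 48.1 and 40.5 CPM in D18N, against 645, 754 and 674 CPM in WT (log2 fold change -3.54 ± 0.31, adjusted p = 0.000122). Every D18N library was below every WT library for these genes. C5ar1, the receptor for the complement fragment C5a, had 0.909, 0.626 and 0.624 CPM in D18N, against 9.74, 18.6 and 15.8 CPM in WT (log2 fold change -4.34 ± 0.34, adjusted p = 5.07e-05). Ctss, a lysosomal protease of antigen-presenting cells, had 4.88, 3.81 and 3.74 CPM in D18N, against 27.3, 26.8 and 24.3 CPM in WT (log2 fold change -2.65 ± 0.25, adjusted p = 0.000121). The receptor list was lower in 12 of 13 members, the signalling and transcription list in 12 of 13 and the effector list in 11 of 13. With D18N replicate 1 as the only D18N library these counts were 7, 7 and 5. MHC class II genes were low in both genotypes. H2-Ab1, a chain of the presenting molecule whose gene has close relatives that can share its reads, had 6.19, 9.55 and 7.71 CPM in D18N, against 3.05, 1.34 and 1.41 CPM in WT (log2 fold change 2.01 ± 0.60, adjusted p = 0.0327, up to 0.113 without D18N replicate 2 or 3, WT replicate 2 or 3 or p212fs replicate 1 or 2). Itgb2, the leukocyte integrin chain, was lower with 4.71, 2.73 and 1.76 CPM in D18N, against 11.6, 22.5 and 17.1 CPM in WT (log2 fold change -2.47 ± 0.36, adjusted p = 0.00168).

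Interferon-stimulated genes had medians above 0 in D18N, at 1.02 for antiviral effectors, 1.6 for GTPases and 0.94 for MHC class I genes, but how many passed depended on a library of another genotype. In the fit over all 11 libraries, 4 of 27 antiviral effectors were higher and none lower. That count was 1 (D18N replicate 1 or 2 or WT replicate 2 or 3), 10 (Trex1-/- replicate 1) and 18 (Trex1-/- replicate 2) with the library in brackets left out. It was 1 with no filter, 1 with D18N replicate 1 as the only D18N library, 8 with DESeq2, 15 with only the D18N and WT libraries fitted and 19 with the sex pattern term. Of interferon-inducible GTPases, 6 of 16 were higher and none lower. The GTPase count was 0 (WT replicate 1), 1 (WT replicate 3), 3 (D18N replicate 1), 10 (Trex1-/- replicate 1) and 15 (Trex1-/- replicate 2) with the library in brackets left out. It was 0 with no filter, 0 with D18N replicate 1 as the only D18N library, 13 with the sex pattern term and 14 with only the D18N and WT libraries fitted. Of MHC class I and peptide loading genes, 7 of 21 were higher and none lower. Their count was 1 (WT replicate 3), 2 (D18N replicate 1 or WT replicate 2), 3 (D18N replicate 2 or p212fs replicate 1 or 2), 4 (D18N replicate 3 or WT replicate 1), 11 (Trex1-/- replicate 1) and 14 (Trex1-/- replicate 2) with the library in brackets left out. It was 0 with D18N replicate 1 as the only D18N library, 1 with no filter, 14 with only the D18N and WT libraries fitted and 15 with the sex pattern term. Cytosolic DNA sensing had 2 of 16 higher (lowest 0 without D18N replicate 1, highest 7 without Trex1-/- replicate 2) and 4 lower, and RNA sensing 3 of 9 higher (lowest 1 without D18N replicate 2, highest 8 without Trex1-/- replicate 2) and none lower. 7 DNA sensing and 8 RNA sensing genes were higher and 1 DNA sensing gene was lower with the sex pattern term. The lower DNA sensing count was 1 without D18N replicate 2. Over all genes 12.2% were higher, and the higher antiviral and DNA sensing counts of the fit over all 11 libraries lay near that share. Trex1-/- replicate 2, whose removal raised the higher counts above, had the highest antiviral sum of the 11 libraries and enters the shared estimate of the spread. It also enters the sex pattern term, which rests on D18N and Trex1-/- alone. In both, the library with the Xist pattern had the highest antiviral sum, at 3390 CPM in D18N and 9480 CPM in Trex1-/-. Whether the higher counts with that term come from Trex1-/- replicate 2 was not tested. The summed antiviral level was 3390, 2820 and 2860 CPM in D18N, against 2730, 1460 and 1440 CPM in WT, and the summed MHC class I level 4340, 3180 and 3160 CPM in D18N, against 2320, 1300 and 1320 CPM in WT. WT replicate 1 was the highest WT library in both sums, and its antiviral sum came close to the lowest D18N library.

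Promoters of an interferon-inducible GTPase and of the light chain of MHC class I are shown because most tested members of their lists passed when only the D18N and WT libraries were fitted. They are from the same RefSeq table (GRCm38.p6), 250 bases upstream of the start on the gene's strand. Capitals mark GAAANNGAA on either strand, where N is any base, a core of the interferon-stimulated response element:
Gbp7 (chr3:142530086-142530335, plus strand): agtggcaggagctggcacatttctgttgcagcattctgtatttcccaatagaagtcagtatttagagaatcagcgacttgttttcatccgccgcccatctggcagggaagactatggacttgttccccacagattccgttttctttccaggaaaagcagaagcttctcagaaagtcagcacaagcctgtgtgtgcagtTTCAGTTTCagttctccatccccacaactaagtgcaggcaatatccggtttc
B2m (chr2:122147437-122147686, plus strand): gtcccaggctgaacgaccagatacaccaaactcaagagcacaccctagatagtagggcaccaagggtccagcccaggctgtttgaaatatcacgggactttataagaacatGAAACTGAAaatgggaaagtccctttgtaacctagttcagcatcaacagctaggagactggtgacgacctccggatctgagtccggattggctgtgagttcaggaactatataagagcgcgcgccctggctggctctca
These letters stood in 9 of 10 promoters found for the GTPase list, 10 of 21 for the antiviral list and 4 of 17 for the MHC class I list, and in 1934 of 27025 promoters (7.16%).

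Members of the signalling chain follow. Stat2, the transcription factor of the type I response, had 302, 246 and 225 CPM in D18N, against 124, 109 and 90.4 CPM in WT (log2 fold change 1.26 ± 0.28, adjusted p = 0.0107). Socs3, a feedback inhibitor of JAK kinases, had 134, 134 and 113 CPM in D18N, against 71.8, 75.0 and 71.6 CPM in WT (log2 fold change 0.80 ± 0.23, adjusted p = 0.0281, up to 0.0991 without D18N replicate 1 or 2 or WT replicate 1, 2 or 3). The receptor chain Ifnar1 had 129.7, 114 and 115 CPM in D18N, against 95.8, 120.0 and 113 CPM in WT (log2 fold change 0.13 ± 0.12, adjusted p = 0.434), with overlapping libraries. Irf7, the factor that amplifies interferon production, had 297, 175 and 176 CPM in D18N, against 75.4, 30.6 and 23.7 CPM in WT and did not pass (log2 fold change 2.32 ± 0.77, adjusted p = 0.0533, down to 0.00589 without Trex1-/- replicate 1, 2 or 3), although its 3 D18N libraries lay above the 3 WT libraries. Of the sensors, Ddx60, a helicase that aids the RNA sensor RIG-I, had 32.3, 22.8 and 21.7 CPM in D18N, against 4.90, 6.66 and 3.15 CPM in WT (log2 fold change 2.39 ± 0.47, adjusted p = 0.00789). Eif2ak2, the kinase PKR that stops translation on double-stranded RNA, had 99.4, 101 and 107 CPM in D18N, against 52.8, 65.1 and 50.9 CPM in WT (log2 fold change 0.86 ± 0.22, adjusted p = 0.0182, up to 0.0774 without D18N replicate 2 or 3 or WT replicate 1 or 3). Ifi203, a member of a cluster of DNA-binding proteins with near-identical copies among which reads can be split, had 124, 97.5 and 84.7 CPM in D18N, against 29.6, 24.6 and 16.6 CPM in WT (log2 fold change 2.11 ± 0.55, adjusted p = 0.0236, up to 0.0825 without D18N replicate 1 or 2 or WT replicate 1 or 3). Subunits of ribonuclease H2, which clears RNA from DNA and whose loss also activates cGAS, were lower. Rnaseh2b had 11.3, 11.4 and 12.4 CPM in D18N, against 27.2, 17.4 and 18.2 CPM in WT (log2 fold change -0.84 ± 0.19, adjusted p = 0.0123, up to 0.0503 without D18N replicate 2). Rnaseh2c had 16.8, 19.8 and 21.6 CPM in D18N, against 54.0, 29.0 and 36.5 CPM in WT (log2 fold change -1.04 ± 0.23, adjusted p = 0.00988). Rnaseh2b no longer passed with the sex pattern term. Irf7 passed with the sex pattern term (adjusted p = 0.00847), with only the D18N and WT libraries fitted (adjusted p = 0.00832) and with DESeq2 (adjusted p = 0.0227).

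Among the effectors, Ifi27l2a, a small mitochondrial protein induced by interferon, had 55.1, 41.4 and 29.4 CPM in D18N, against 6.74, 3.42 and 1.74 CPM in WT (log2 fold change 3.40 ± 0.58, adjusted p = 0.00467), the D18N libraries all being above the highest WT library. Slfn5, a Schlafen family member that represses transcription, had 87.5, 48.3 and 60.7 CPM in D18N, against 16.5, 28.9 and 19.1 CPM in WT (log2 fold change 1.61 ± 0.33, adjusted p = 0.00832). Gbp7, the GTPase of the promoter above, had 56.0, 48.6 and 52.1 CPM in D18N, against 17.5, 19.3 and 10.96 CPM in WT (log2 fold change 1.72 ± 0.45, adjusted p = 0.024, up to 0.0838 without D18N replicate 1, 2 or 3 or WT replicate 1 or 3). B2m had 1125, 916 and 879 CPM in D18N, against 704, 394 and 424 CPM in WT (log2 fold change 0.94 ± 0.28, adjusted p = 0.0339, up to 0.12 without D18N replicate 1, 2 or 3, WT replicate 2 or 3 or p212fs replicate 1 or 2), and in both of these genes no library overlapped. Rnf213, a large ubiquitin ligase that recognises pathogens, had 876, 683 and 797 CPM in D18N, against 282, 371 and 236 CPM in WT (log2 fold change 1.4 ± 0.28, adjusted p = 0.00715). Its rise in CPM was 1 of the 15 largest among called genes without overlap, outside the muscle and immune lists and with predicted genes left out. Complement component C2 had 29.4, 19.3 and 17.6 CPM in D18N, against 4.21, 4.09 and 3.80 CPM in WT (log2 fold change 2.45 ± 0.58, adjusted p = 0.0149, up to 0.063 without WT replicate 1 or 3). C3 had 683, 123 and 81.2 CPM in D18N, against 275, 227 and 205 CPM in WT (log2 fold change 0.33 ± 0.74, adjusted p = 0.772), with D18N replicate 1 above all WT libraries and the other D18N libraries below them. Of 17 chemokines, none was higher (5 with the sex pattern term) and 3 were lower. That lower count lay near the 13.2% lower over all genes, and nothing particular to the list is read from it. Among the lower ones was Cxcl14, which attracts monocytes, with 17.8, 34.2 and 10.1 CPM in D18N, against 53.4, 121 and 113 CPM in WT (log2 fold change -2.21 ± 0.52, adjusted p = 0.0159). The acute-phase gene Saa3 had 1808, 335 and 158 CPM in D18N, against 818, 514 and 517 CPM in WT (log2 fold change 0.32 ± 1.06, adjusted p = 0.847), and D18N replicate 1 was its highest library. Gbp7 and Rnf213 no longer passed with the length and GC offset. C3 passed with the sex pattern term (adjusted p = 0.0228).

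**Figure D3:**
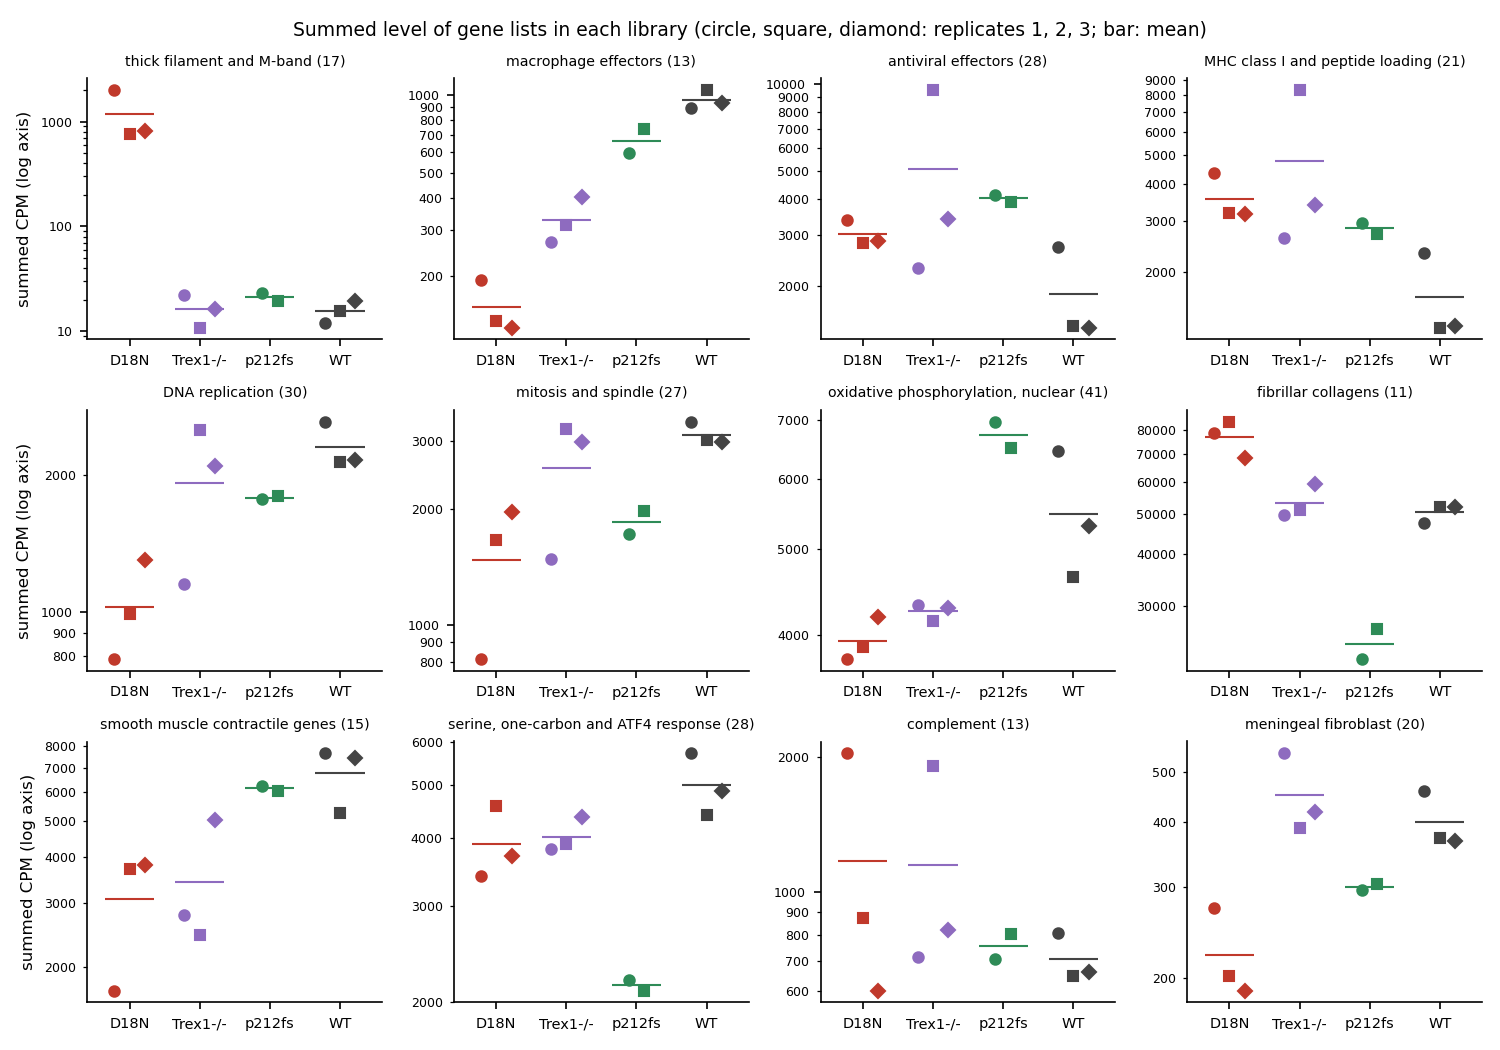
Summed CPM of 12 gene lists in each of the 11 libraries, on log axes, by genotype; circles, squares and diamonds are replicates 1, 2 and 3, the bar is the mean, and the number of genes summed is in brackets. D18N replicate 1 was the highest for thick filament genes at 1990 CPM, and Trex1-/- replicate 2 stood apart in the antiviral and MHC class I sums.

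Genes of the cell cycle were lower in D18N. DNA replication genes were lower in 28 of 30 members (median -1.15), mitosis and spindle genes in 12 of 27 (median -1.05), and all members of both lists had D18N libraries wholly below the WT libraries. The number called rested on single libraries and on the model. For DNA replication it was 8 (D18N replicate 2), 9 (WT replicate 1), 13 (D18N replicate 1) and 17 (WT replicate 3) with the library in brackets left out. It was 5 with the sex pattern term and 6 with D18N replicate 1 as the only D18N library. For mitosis the count was 1 (WT replicate 1), 2 (D18N replicate 2), 5 (D18N replicate 1), 6 (WT replicate 3), 21 (Trex1-/- replicate 2) and 24 (Trex1-/- replicate 1) with the library in brackets left out. It was 2 with no filter, 3 with the sex pattern term, 20 with only the D18N and WT libraries fitted and 24 with DESeq2. It was 16 with D18N replicate 1 as the only D18N library. The summed mitosis level was 815, 1660 and 1960 CPM in D18N, against 3370, 3020 and 2980 CPM in WT. D18N replicate 1, the library with the highest summed thick filament level, was the lowest of the 6 here, and the part of muscle content in this was not tested. Promoters of a helicase subunit and of an activator of the anaphase complex are shown as members of these lists, again 250 bases upstream from the RefSeq table (GRCm38.p6). Capitals mark CCAAT, the box read by NF-Y, on either strand:
Mcm3 (chr1:20820313-20820562, minus strand): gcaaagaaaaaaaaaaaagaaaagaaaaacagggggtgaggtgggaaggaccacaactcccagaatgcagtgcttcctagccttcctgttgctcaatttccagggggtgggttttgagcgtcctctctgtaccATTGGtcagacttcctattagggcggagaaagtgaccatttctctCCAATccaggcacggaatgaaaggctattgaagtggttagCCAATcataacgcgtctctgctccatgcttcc
Cdc20 (chr4:118437344-118437593, minus strand): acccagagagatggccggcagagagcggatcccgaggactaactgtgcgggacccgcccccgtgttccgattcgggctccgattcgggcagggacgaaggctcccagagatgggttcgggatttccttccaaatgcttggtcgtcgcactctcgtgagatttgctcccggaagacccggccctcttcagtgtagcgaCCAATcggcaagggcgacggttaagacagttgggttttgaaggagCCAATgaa
CCAAT stood in 16 of 25 promoters found for the DNA replication list and 19 of 23 for mitosis, and in 9314 of 27025 promoters (34.5%).

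Mcm3, a subunit of the replicative helicase, had 34.9, 42.5 and 58.3 CPM in D18N, against 147, 116 and 119 CPM in WT (log2 fold change -1.49 ± 0.25, adjusted p = 0.00374). Pcna, the sliding clamp of DNA polymerase, had 60.8, 63.4 and 85.9 CPM in D18N, against 184, 161 and 141 CPM in WT (log2 fold change -1.21 ± 0.22, adjusted p = 0.00434). Cdc20 had 31.8, 48.9 and 62.0 CPM in D18N, against 178, 125 and 136 CPM in WT (log2 fold change -1.62 ± 0.30, adjusted p = 0.00559). For all of these the lowest library was D18N replicate 1 and the highest of the 6 was WT replicate 1, with no overlap of the genotypes. Ccnd1, the cyclin that carries cells out of G1, had 48.5, 35.4 and 40.6 CPM in D18N, against 120.1, 117 and 112 CPM in WT (log2 fold change -1.49 ± 0.14, adjusted p = 0.000142). Cdk4, the kinase partner of these cyclins, had 279.8, 232 and 312 CPM in D18N, against 555, 368 and 444 CPM in WT (log2 fold change -0.73 ± 0.16, adjusted p = 0.00942). Of the inhibitors, Cdkn2c had 16.7, 27.2 and 26.6 CPM in D18N, against 56.0, 47.6 and 48.7 CPM in WT (log2 fold change -1.11 ± 0.23, adjusted p = 0.00815). Cdkn1b, which encodes p27, had 74.1, 93.4 and 84.1 CPM in D18N, against 35.5, 66.1 and 48.2 CPM in WT (log2 fold change 0.75 ± 0.22, adjusted p = 0.0316, up to 0.108 without D18N replicate 2 or 3, WT replicate 1 or 3 or p212fs replicate 1 or 2). Cdkn1a, which encodes p21, had 223, 182 and 169.6 CPM in D18N, against 181, 173 and 190.3 CPM in WT (log2 fold change 0.08 ± 0.23, adjusted p = 0.83). H2ax, the histone that marks DNA breaks and is also made in S phase, had 51.9, 61.1 and 75.7 CPM in D18N, against 244, 144 and 176 CPM in WT (log2 fold change -1.58 ± 0.27, adjusted p = 0.00363). Cdkn1b no longer passed with the sex pattern term.

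Genes of the p53 response did not share a direction: 3 of 28 were higher (lowest 0 without D18N replicate 2, highest 4 without Trex1-/- replicate 1) and 9 lower, with a median of -0.06. Pmaip1, which encodes the death factor NOXA, had 11.6, 15.9 and 12.9 CPM in D18N, against 5.30, 6.91 and 8.68 CPM in WT (log2 fold change 0.95 ± 0.21, adjusted p = 0.0106, up to 0.052 without D18N replicate 2). Phlda3, an inhibitor of AKT, had 116, 95.3 and 98.2 CPM in D18N, against 205, 149 and 204 CPM in WT (log2 fold change -0.85 ± 0.15, adjusted p = 0.00385). Bax, a pore-forming death factor, had 76.0, 61.5 and 77.9 CPM in D18N, against 142, 99.98 and 108 CPM in WT (log2 fold change -0.70 ± 0.15, adjusted p = 0.00982). The genotypes did not overlap in any of these. DNA break repair and checkpoint genes were lower in 9 of 24 members (lowest 1 without D18N replicate 2, highest 12 without Trex1-/- replicate 1, and 1 with the sex pattern term). The higher member was Trp53bp1, which encodes the scaffold 53BP1, with 71.0, 67.6 and 69.9 CPM in D18N, against 35.3, 52.8 and 50.4 CPM in WT (log2 fold change 0.59 ± 0.14, adjusted p = 0.013). 4 p53 genes were lower with the sex pattern term. Bax no longer passed with the sex pattern term. Trp53bp1 no longer passed with the length and GC offset.

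Mitochondrial genes of both genomes had lower members and no higher one. Nuclear genes of oxidative phosphorylation were lower in 28 of 41 tested members (median -0.51), and none was higher. The count was 5 (D18N replicate 2), 10 (D18N replicate 1) and 12 (WT replicate 1 or 3) with the library in brackets left out. It was 1 with D18N replicate 1 as the only D18N library, 9 with the sex pattern term and 15 with only the D18N and WT libraries fitted. Mitochondrially encoded genes were lower in 7 of 12 (median -0.61), and the count stayed between 5 and 7 whichever library was left out. It also fell with D18N replicate 1 as the only D18N library. Ndufa4, a small subunit of cytochrome c oxidase, had 58.2, 62.3 and 74.2 CPM in D18N, against 117, 90.1 and 101 CPM in WT (log2 fold change -0.66 ± 0.13, adjusted p = 0.00606). mt-Nd2, a mitochondrial subunit of complex I, had 427, 347 and 423 CPM in D18N, against 792, 656 and 792 CPM in WT (log2 fold change -0.90 ± 0.13, adjusted p = 0.00142). Both genes were lower in every D18N library than in any WT library. mt-Co1, a subunit of complex IV, had 4662, 5699 and 5397 CPM in D18N, against 3992, 4589 and 4801 CPM in WT and did not pass (log2 fold change 0.24 ± 0.14, adjusted p = 0.233). Cytosolic ribosomal protein genes were lower in 2 of 42 members (lowest 0 without D18N replicate 1, highest 20 without WT replicate 2). Their sum was 31200, 29600 and 30700 CPM in D18N, against 45800, 27200 and 33700 CPM in WT, with WT replicate 1 above the other 5 libraries. No ribosomal protein genes were lower with the sex pattern term.

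The serine, one-carbon and ATF4 list was lower in 11 of 28 members (lowest 6 without D18N replicate 1, highest 14 without D18N replicate 2) and higher in 4. Phgdh, the entry enzyme of serine synthesis, had 174, 224 and 219.8 CPM in D18N, against 621, 363 and 476 CPM in WT (log2 fold change -1.24 ± 0.18, adjusted p = 0.00176). Psat1, the next enzyme of that pathway, had 170.1, 307 and 244 CPM in D18N, against 561, 422 and 470.3 CPM in WT (log2 fold change -1.01 ± 0.20, adjusted p = 0.00702). Mthfd1, which interconverts folate one-carbon units in the cytosol, had 33.05, 23.9 and 33.3 CPM in D18N, against 71.4, 61.0 and 65.5 CPM in WT (log2 fold change -1.13 ± 0.16, adjusted p = 0.00114). None of these overlapped between genotypes. The factor Atf4, which drives serine synthesis genes, had 366, 513 and 394 CPM in D18N, against 636, 430.2 and 515 CPM in WT, with overlap (log2 fold change -0.31 ± 0.16, adjusted p = 0.175, down to 0.0473 without WT replicate 2). The higher members included Slc38a2, a transporter of small neutral amino acids, with 456, 565 and 510.2 CPM in D18N, against 222, 337 and 299.7 CPM in WT (log2 fold change 0.84 ± 0.15, adjusted p = 0.00479). Of the glycolysis and hypoxia list, 9 of 32 were higher and none lower (lowest 2 without WT replicate 3, highest 10 without Trex1-/- replicate 2). Ddit4, the stress-induced inhibitor of mTORC1, had 279, 236 and 266 CPM in D18N, against 118, 108 and 98.0 CPM in WT (log2 fold change 1.27 ± 0.15, adjusted p = 0.000542). Ero1a, the oxidase that makes disulfide bonds in the endoplasmic reticulum, had 228, 281 and 215 CPM in D18N, against 111, 125 and 104 CPM in WT (log2 fold change 1.09 ± 0.15, adjusted p = 0.00114). Every D18N library of both genes lay above every WT library. Ldha, the enzyme that makes lactate, overlapped, with 1151, 1227 and 1420 CPM in D18N, against 1650, 1283 and 1300 CPM in WT (log2 fold change -0.16 ± 0.22, adjusted p = 0.623). 2 serine and ATF4 genes were higher with the sex pattern term. The higher serine and ATF4 count was 1 without D18N replicate 2.

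Heat shock genes were lower in 8 of 23 members (lowest 3 without D18N replicate 2, highest 11 without WT replicate 2) and higher in 3. Genes of NRF2 and glutathione metabolism were lower in 5 of 26 (lowest 2 without D18N replicate 2, highest 10 without Trex1-/- replicate 2) and higher in 1. Hspd1, the mitochondrial chaperonin, had 204, 196 and 250.3 CPM in D18N, against 512, 385 and 401 CPM in WT (log2 fold change -1.0 ± 0.15, adjusted p = 0.00178). Hsp90aa1, the inducible cytosolic HSP90, had 323, 333 and 449 CPM in D18N, against 721, 612 and 647 CPM in WT (log2 fold change -0.84 ± 0.17, adjusted p = 0.00772). Hspb2, a small heat shock protein of muscle, was higher with 6.19, 2.22 and 2.21 CPM in D18N, against 0.922, 0.367 and 0.488 CPM in WT (log2 fold change 2.56 ± 0.59, adjusted p = 0.0119). Hspb3, a relative of it, was at least 16.5-fold higher, with 0 counts in WT. Gpx1, a glutathione peroxidase, had 128, 110.5 and 129 CPM in D18N, against 337, 191 and 273 CPM in WT (log2 fold change -1.13 ± 0.18, adjusted p = 0.00256). Prdx1, a peroxiredoxin, had 199, 206 and 233 CPM in D18N, against 496, 326 and 395 CPM in WT (log2 fold change -0.93 ± 0.18, adjusted p = 0.00617). No library of D18N reached the lowest WT library in these peroxidases. Ern1, which encodes the sensor IRE1 of unfolded proteins, had 56.96, 57.9 and 47.4 CPM in D18N, against 13.2, 27.4 and 19.1 CPM in WT (log2 fold change 1.44 ± 0.23, adjusted p = 0.00253). The chaperone Hspa5, which holds IRE1 inactive in unstressed cells, had 960.3, 805 and 1149 CPM in D18N, against 1321, 1258 and 1349 CPM in WT (log2 fold change -0.43 ± 0.15, adjusted p = 0.0545, down to 0.0326 without D18N replicate 3 or Trex1-/- replicate 1 or 2). Ctsh, a lysosomal aminopeptidase, had 73.8, 75.8 and 71.1 CPM in D18N, against 29.7, 18.6 and 22.2 CPM in WT (log2 fold change 1.65 ± 0.21, adjusted p = 0.000747). Wipi1, which binds the lipid of forming autophagosomes, had 128, 134 and 123 CPM in D18N, against 60.3, 74.6 and 62.1 CPM in WT (log2 fold change 0.97 ± 0.12, adjusted p = 0.000585). Lysosome genes were higher in 8 of 31 members (lowest 5 without D18N replicate 1, highest 8 without WT replicate 1) and lower in 2, and autophagy genes higher in 6 of 25 and lower in none. 3 heat shock and 2 NRF2 and glutathione genes were lower with the sex pattern term. The lower autophagy count was 3 without WT replicate 2. Hspa5 passed with DESeq2 (adjusted p = 0.0244) and with the length and GC offset (adjusted p = 0.0263).

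**Figure D4:**
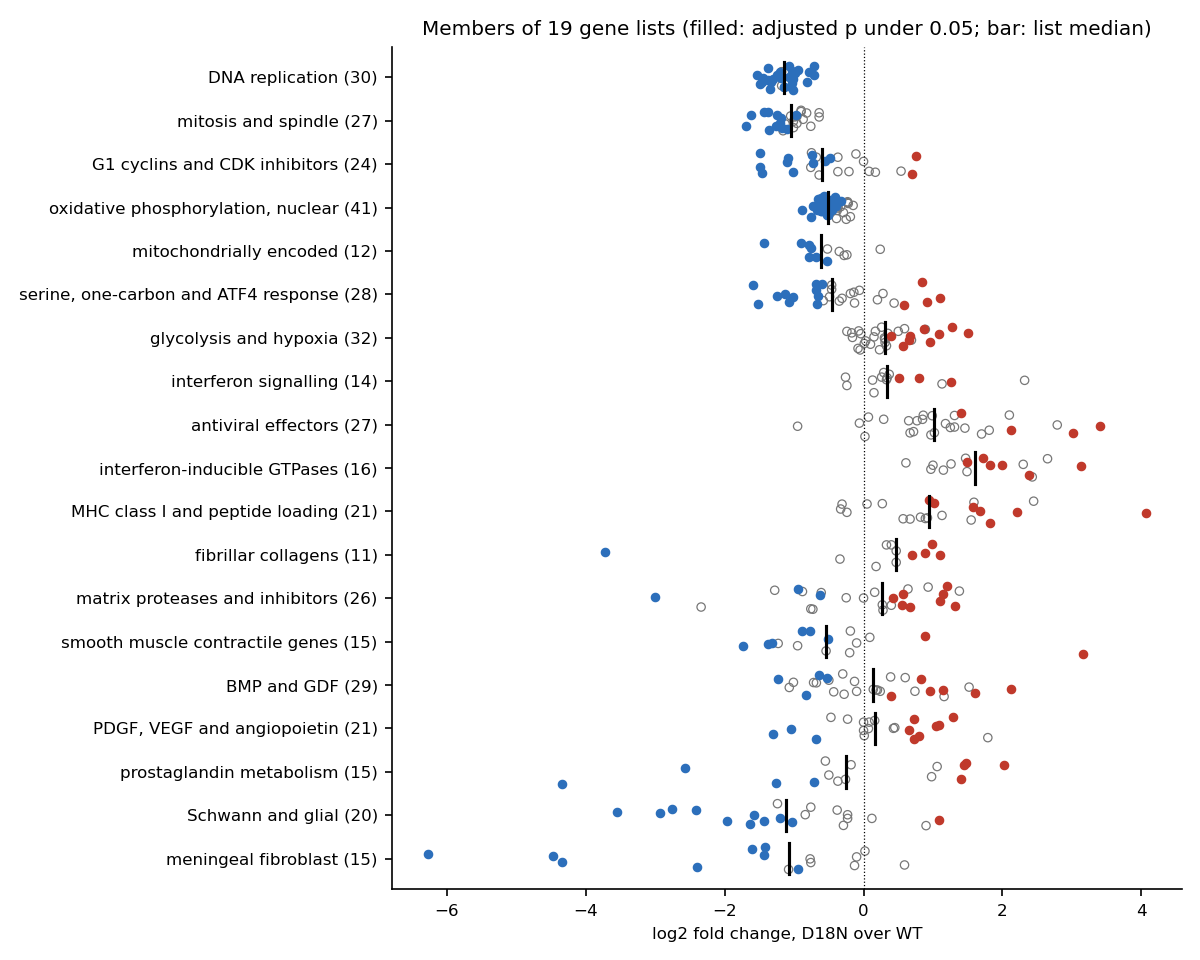
Log2 fold change of each tested member of 19 lists in D18N over WT; filled points passed an adjusted p of 0.05 (right of 0 higher, left of 0 lower in D18N), open points did not, the bar is the list median and the number tested is in brackets. DNA replication members lay to the left with a median of -1.15, and GTPases to the right with a median of 1.6.

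Fibrillar collagens were higher in 4 of 11 members and lower in 1, matrix glycoproteins higher in 6 of 26 and lower in 3, and collagen processing genes higher in 8 of 23 (lowest 3 without WT replicate 3, highest 9 without Trex1-/- replicate 1) and lower in 2. Col3a1, the chain of type III collagen, had 19330, 14430 and 11420 CPM in D18N, against 6347, 9295 and 8692 CPM in WT (log2 fold change 0.89 ± 0.21, adjusted p = 0.0133). Col5a2, a chain of the collagen that seeds fibrils, had 3921, 5505 and 5281 CPM in D18N, against 1984, 2589 and 2277 CPM in WT (log2 fold change 1.10 ± 0.15, adjusted p = 0.00128). Col1a2 had 19760, 23720 and 19330 CPM in D18N, against 11960, 13310 and 13480 CPM in WT (log2 fold change 0.70 ± 0.14, adjusted p = 0.00726). The other chain of type I collagen, Col1a1, given above, did not pass (log2 fold change 0.40 ± 0.15, adjusted p = 0.0735). Each of these collagens had all D18N libraries above all WT libraries. Postn, the matricellular protein periostin, had 4632, 6062 and 6274 CPM in D18N, against 2329, 2529 and 2369 CPM in WT (log2 fold change 1.23 ± 0.22, adjusted p = 0.00398). Thbs2, an antiangiogenic thrombospondin, had 2812, 3258 and 3046 CPM in D18N, against 1286, 1735 and 1564 CPM in WT (log2 fold change 0.99 ± 0.20, adjusted p = 0.00762). Vcan, the proteoglycan versican, had 1722, 1032 and 994 CPM in D18N, against 349, 686 and 454 CPM in WT (log2 fold change 1.33 ± 0.28, adjusted p = 0.00847). Plod1, which hydroxylates lysines of collagen, had 457, 476 and 392.2 CPM in D18N, against 236, 214 and 227 CPM in WT (log2 fold change 0.97 ± 0.12, adjusted p = 0.000623). D18N libraries lay above WT libraries in all of these. 5 collagen processing genes were higher with the sex pattern term. The lower collagen processing count was 0 without D18N replicate 1. Col1a1 passed with DESeq2 (adjusted p = 0.028).

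Elastin and several other matrix genes were lower. Eln, the core of elastic fibres, had 115, 77.9 and 70.7 CPM in D18N, against 492, 924 and 1005 CPM in WT (log2 fold change -3.20 ± 0.68, adjusted p = 0.011). Its microfibril scaffold Fbn1 had 2979, 2696 and 2572 CPM in D18N, against 1005, 1958 and 1632 CPM in WT (log2 fold change 0.84 ± 0.24, adjusted p = 0.0279, up to 0.0761 without D18N replicate 1, 2 or 3 or WT replicate 1 or 3). Fmod, the collagen-binding proteoglycan fibromodulin, had 59.7, 66.4 and 59.5 CPM in D18N, against 215, 170.3 and 215 CPM in WT (log2 fold change -1.69 ± 0.19, adjusted p = 0.000353). Smoc1, a BMP-binding matrix protein, had 8.58, 6.54 and 6.92 CPM in D18N, against 36.4, 30.1 and 35.7 CPM in WT (log2 fold change -2.21 ± 0.29, adjusted p = 0.000964). Serpina3n, an inhibitor of serine proteases, had 54.8, 33.2 and 27.4 CPM in D18N, against 194, 159.5 and 140.2 CPM in WT (log2 fold change -2.10 ± 0.26, adjusted p = 0.000652). Every D18N library was below every WT library for Eln, Fmod, Smoc1 and Serpina3n. Col4a1, the main chain of basement membrane collagen, had 975, 1243 and 1294 CPM in D18N, against 1484, 1836 and 1795 CPM in WT (log2 fold change -0.54 ± 0.15, adjusted p = 0.025, up to 0.0794 without D18N replicate 1 or 2 or WT replicate 3). Adamts5, a protease that cleaves versican and aggrecan, was higher with 237, 326 and 244 CPM in D18N, against 99.1, 155 and 98.3 CPM in WT (log2 fold change 1.20 ± 0.19, adjusted p = 0.00265). Mmp11, a matrix metalloprotease, was higher with 192, 175 and 233 CPM in D18N, against 123, 73.2 and 84.99 CPM in WT (log2 fold change 1.10 ± 0.19, adjusted p = 0.00378). Timp2, an inhibitor of such proteases, had 650.1, 496 and 536 CPM in D18N, against 822, 828 and 957 CPM in WT (log2 fold change -0.63 ± 0.15, adjusted p = 0.0129, up to 0.0598 without D18N replicate 2 or WT replicate 3). Fbn1 no longer passed with the sex pattern term. Fbn1 no longer passed with the length and GC offset.

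Contractile genes of smooth muscle and myofibroblasts were lower in 6 of 15 members and higher in 2. The higher ones were Ldb3, which is also in the Z-disc list, and Synpo2. The lower count was 0 (WT replicate 1 or 3), 1 (D18N replicate 1 or 2) and 3 (p212fs replicate 1 or 2) with the library in brackets left out. It was 2 with no filter, 8 with DESeq2 and 9 with the sex pattern term. Acta2, the smooth muscle actin of myofibroblasts, had 817, 2178 and 2319 CPM in D18N, against 5310, 3499 and 5016 CPM in WT (log2 fold change -1.38 ± 0.42, adjusted p = 0.0368, up to 0.12 without D18N replicate 1 or 2, WT replicate 1 or 3 or p212fs replicate 1 or 2). Actg2, its enteric relative, had 24.7, 98.1 and 87.0 CPM in D18N, against 217, 181 and 305 CPM in WT (log2 fold change -1.74 ± 0.48, adjusted p = 0.0285, up to 0.0833 without WT replicate 1 or 3). D18N replicate 1 was the lowest of the 6 libraries in both and WT replicate 2 the lowest of WT. Actb, the cytoplasmic actin, had 1757, 2551 and 2800 CPM in D18N, against 4375, 3229 and 3855 CPM in WT (log2 fold change -0.69 ± 0.21, adjusted p = 0.0355, up to 0.108 without D18N replicate 1 or 2, WT replicate 1 or 3 or p212fs replicate 1 or 2). Lmna, the nuclear lamin, had 514, 520.2 and 612 CPM in D18N, against 1350, 926 and 1006 CPM in WT (log2 fold change -1.0 ± 0.16, adjusted p = 0.00284). Anxa2, an annexin of the membrane skeleton, had 655, 635 and 726 CPM in D18N, against 1496, 939.8 and 1104 CPM in WT (log2 fold change -0.81 ± 0.17, adjusted p = 0.00757). In both, D18N replicate 3 was the highest D18N library and still below every WT library. Itgb3, the beta chain of a vitronectin receptor, was higher at 36.7, 71.8 and 62.9 CPM in D18N, against 18.1, 22.7 and 20.2 CPM in WT (log2 fold change 1.49 ± 0.26, adjusted p = 0.00432). Itgb6, an epithelial integrin chain that activates TGF-beta, had 4.66, 1.31 and 2.10 CPM in D18N, against 0, 0 and 0.0543 CPM in WT, or 140-fold higher with a 95% counting interval of 24.8 to 5580. Gja5, a connexin of arteries and heart, had 39.1, 13.4 and 13.8 CPM in D18N, against 0.115, 0.550 and 0.434 CPM in WT (log2 fold change 5.89 ± 0.56, adjusted p = 0.000145). Gjb2, a connexin of epithelium and meninges, had 0.227, 0.796 and 0.284 CPM in D18N, against 8.70, 12.7 and 8.09 CPM in WT (log2 fold change -4.47 ± 0.59, adjusted p = 0.000935).

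Growth factor pathways had members called in both directions. Over all genes 12.2% were higher and 13.2% lower, so counts such as those of the FGF list lie near the background and nothing particular to the pathway is read from them. The FGF list had 4 of 24 higher (lowest 1 without D18N replicate 2, highest 5 without Trex1-/- replicate 2) and 4 lower. The PDGF and VEGF list had 7 of 21 higher (lowest 3 without D18N replicate 1, highest 8 without Trex1-/- replicate 1) and 3 lower, and the BMP list 6 of 29 higher (lowest 2 without D18N replicate 2, highest 7 without Trex1-/- replicate 2) and 4 lower. Fgf10, the mesenchymal growth factor of limb and lung buds, had 38.0, 30.0 and 19.1 CPM in D18N, against 5.47, 6.54 and 5.16 CPM in WT (log2 fold change 2.34 ± 0.33, adjusted p = 0.00137). Spry1, an inhibitor of FGF signalling, had 44.0, 55.9 and 52.5 CPM in D18N, against 84.1, 94.7 and 102 CPM in WT (log2 fold change -0.88 ± 0.14, adjusted p = 0.00294). Vegfa, the endothelial growth factor, had 416, 459 and 390.5 CPM in D18N, against 154, 208 and 156 CPM in WT (log2 fold change 1.29 ± 0.22, adjusted p = 0.00356). Its decoy receptor Flt1 had 63.7, 69.6 and 73.9 CPM in D18N, against 156, 214 and 142 CPM in WT (log2 fold change -1.30 ± 0.27, adjusted p = 0.00827). Pdgfra, a receptor that marks mesenchymal fibroblasts, had 1150, 765 and 939 CPM in D18N, against 381, 562 and 400.4 CPM in WT (log2 fold change 1.09 ± 0.22, adjusted p = 0.00762). Among these, Fgf10, Vegfa and Pdgfra had every D18N library above every WT library. Igfbp2, a binding protein of insulin-like growth factors, had 81.2, 71.3 and 39.2 CPM in D18N, against 399.8, 332 and 429 CPM in WT (log2 fold change -2.60 ± 0.43, adjusted p = 0.00385). Bmpr2, the type 2 receptor of BMPs, had 199, 232 and 186 CPM in D18N, against 86.1, 135 and 98.0 CPM in WT (log2 fold change 0.95 ± 0.17, adjusted p = 0.00458). Id1, an immediate BMP target, had 16.9, 10.98 and 12.2 CPM in D18N, against 33.9, 25.4 and 34.6 CPM in WT (log2 fold change -1.23 ± 0.22, adjusted p = 0.00444). Dusp5, a phosphatase induced by ERK, had 5.05, 4.27 and 5.22 CPM in D18N, against 19.6, 11.9 and 16.1 CPM in WT (log2 fold change -1.71 ± 0.21, adjusted p = 0.000618). 2 FGF genes were higher and 1 FGF gene and 1 PDGF and VEGF gene were lower with the sex pattern term. The lower FGF count was 1 without D18N replicate 2, the lower PDGF and VEGF count was 1 without WT replicate 1 and the lower BMP count was 7 without Trex1-/- replicate 2. Flt1 no longer passed with the sex pattern term. Bmpr2 no longer passed with the length and GC offset.

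The Notch pathway had 3 of 17 members higher and 3 lower, against 12.2% higher and 13.2% lower over all genes. With so few members called, nothing particular to the pathway is read from these counts. Jag2, a ligand, had 8.18, 4.55 and 3.57 CPM in D18N, against 0.0576, 0.183 and 0.543 CPM in WT (log2 fold change 4.32 ± 0.59, adjusted p = 0.00114). Lfng, the glycosyltransferase that tunes the receptor, had 3.86, 3.64 and 6.29 CPM in D18N, against 15.7, 12.2 and 12.9 CPM in WT (log2 fold change -1.56 ± 0.28, adjusted p = 0.0042). Hes6, a repressor that favours muscle and neural differentiation, had 40.0, 28.1 and 29.1 CPM in D18N, against 20.6, 16.4 and 18.2 CPM in WT (log2 fold change 0.81 ± 0.19, adjusted p = 0.012). Hes1, the classic target, had 23.9, 32.4 and 31.1 CPM in D18N, against 71.3, 49.3 and 53.8 CPM in WT (log2 fold change -1.0 ± 0.21, adjusted p = 0.00792). Each of these separated the genotypes. Dlk1, a noncanonical ligand that is also imprinted, had 440.4, 109 and 112 CPM in D18N, against 676, 694 and 678 CPM in WT (log2 fold change -1.63 ± 0.50, adjusted p = 0.0403, up to 0.105 without D18N replicate 2 or 3, WT replicate 1, 2 or 3 or p212fs replicate 1 or 2). D18N replicate 1 stood well above the other D18N libraries there. Gli1, the target of Hedgehog signalling, had 0.284, 0.910 and 1.48 CPM in D18N, against 3.63, 8.62 and 9.23 CPM in WT (log2 fold change -3.00 ± 0.82, adjusted p = 0.0254, up to 0.0827 without D18N replicate 1 or 2 or WT replicate 3). Lgr5, a receptor that strengthens Wnt signals, had 30.6, 24.7 and 20.8 CPM in D18N, against 97.5, 142 and 87.1 CPM in WT (log2 fold change -2.10 ± 0.45, adjusted p = 0.0117). The Wnt list gave no higher member and 4 of 35 lower (lowest 1 without D18N replicate 2, highest 4 without WT replicate 2). That lower count lay near the 13.2% lower over all genes. 2 Wnt genes were lower with the sex pattern term. The higher Notch count was 5 without Trex1-/- replicate 2. Dlk1 no longer passed with the sex pattern term.

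Prostaglandin genes were higher in 4 of 15 members (lowest 2 without D18N replicate 2, highest 5 without Trex1-/- replicate 2) and lower in 4, and nuclear receptors higher in 7 of 21 (lowest 3 without D18N replicate 2, highest 8 without Trex1-/- replicate 2) and lower in none. Ptgfr, the receptor for prostaglandin F, had 33.9, 27.0 and 27.6 CPM in D18N, against 10.8, 12.3 and 8.90 CPM in WT (log2 fold change 1.47 ± 0.19, adjusted p = 0.000775). Ptgs1, the constitutive cyclooxygenase, had 49.6, 62.1 and 55.5 CPM in D18N, against 24.3, 20.3 and 18.6 CPM in WT (log2 fold change 1.4 ± 0.39, adjusted p = 0.0263, up to 0.0892 without D18N replicate 2 or 3 or WT replicate 1, 2 or 3). Ptgds, the prostaglandin D synthase of the meninges, had 0.738, 0.284 and 0.567 CPM in D18N, against 14.9, 11.2 and 6.62 CPM in WT (log2 fold change -4.35 ± 0.45, adjusted p = 0.000214). Tbxas1, the thromboxane synthase of macrophages and platelets, had 0.284, 0.512 and 0.227 CPM in D18N, against 2.19, 1.71 and 2.28 CPM in WT (log2 fold change -2.57 ± 0.39, adjusted p = 0.00203). Both synthases were under 1 CPM in all D18N libraries. Esr1, the oestrogen receptor, had 11.2, 15.3 and 6.01 CPM in D18N, against 2.13, 2.75 and 2.82 CPM in WT (log2 fold change 2.07 ± 0.41, adjusted p = 0.00628). Pgr, the progesterone receptor, had 15.7, 45.8 and 19.7 CPM in D18N, against 2.25, 6.29 and 4.23 CPM in WT (log2 fold change 2.67 ± 0.51, adjusted p = 0.0065), with D18N replicate 2 the highest library of both. Per3, a clock gene, had 16.4, 23.5 and 19.3 CPM in D18N, against 6.57, 9.35 and 10.8 CPM in WT (log2 fold change 1.14 ± 0.22, adjusted p = 0.00538). Sodium and calcium channels were higher in 9 of 30 members (lowest 3 without D18N replicate 2, highest 11 without Trex1-/- replicate 2) and lower in none. Cacna1e, a voltage-gated calcium channel, had 7.50, 6.31 and 5.27 CPM in D18N, against 1.32, 1.53 and 0.868 CPM in WT (log2 fold change 2.36 ± 0.30, adjusted p = 0.00072). 4 nuclear receptor and 4 sodium and calcium channel genes were higher with the sex pattern term.

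**Figure D5:**
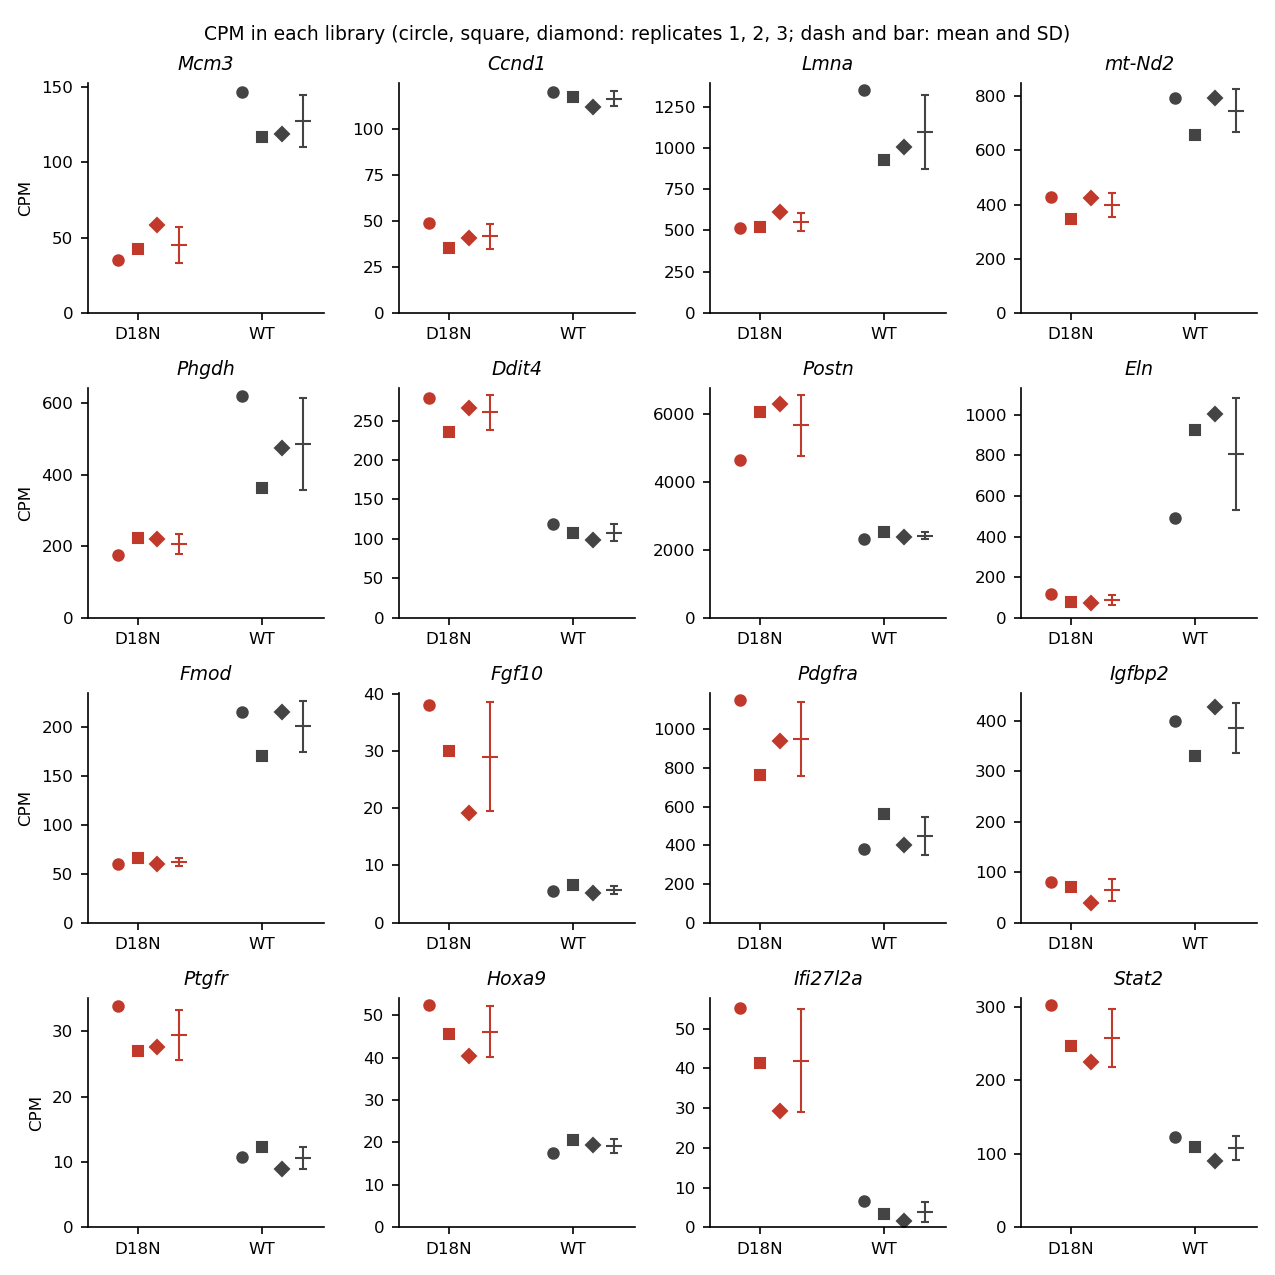
CPM of 16 genes in each D18N and WT library on linear axes from 0; circles, squares and diamonds are replicates 1, 2 and 3, and the dash and bar beside them are the mean and SD (n = 3 each). No library of one genotype lay within the range of the other in any of the 16 genes.

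Markers of other embryonic cell types also differed, at low levels. Epithelial markers were higher in 6 of 18 members and lower in 3. Krt5, a keratin of basal epidermis, had 18, 9.73 and 5.10 CPM in D18N, against 0.115, 0 and 0.0543 CPM in WT, or 190-fold higher with a 95% counting interval of 64.8 to 925. Krt17, a keratin of hair follicles and stressed epidermis, had 16.5, 7.62 and 6.07 CPM in D18N, against 0, 0 and 0.108 CPM in WT, or 262-fold higher with a 95% counting interval of 72.2 to 2170. Trp63, the factor of stratified epithelium, had 5.91, 3.01 and 2.04 CPM in D18N, against 0.461, 0.428 and 0.543 CPM in WT (log2 fold change 2.92 ± 0.59, adjusted p = 0.00704), yet Krt7, of simple epithelium, was lower with 2.10, 0.796 and 1.81 CPM in D18N, against 10.7, 4.46 and 5.26 CPM in WT (log2 fold change -2.11 ± 0.40, adjusted p = 0.00554). Meningeal markers were lower in 8 of 15 members (lowest 4 without WT replicate 3, highest 9 without Trex1-/- replicate 2) and none higher, and Schwann and glial markers lower in 10 of 20 (lowest 6 without D18N replicate 2, highest 12 without D18N replicate 1) and higher in 1. Gfap, the filament of astrocytes and glia, had 14.2, 7.34 and 2.78 CPM in D18N, against 34.5, 71.4 and 80.4 CPM in WT (log2 fold change -2.93 ± 0.59, adjusted p = 0.00916). Fabp7, a lipid carrier of glial precursors, had 3.52, 2.45 and 2.10 CPM in D18N, against 9.74, 15.8 and 17.6 CPM in WT (log2 fold change -2.41 ± 0.30, adjusted p = 0.000655). Olig1, an oligodendrocyte factor, had 1.14, 0.398 and 0.227 CPM in D18N, against 5.13, 6.23 and 9.50 CPM in WT (log2 fold change -3.55 ± 0.64, adjusted p = 0.00469). Msln, the mesothelial antigen mesothelin, had 7.33, 2.05 and 3.46 CPM in D18N, against 18.5, 13.4 and 14.9 CPM in WT (log2 fold change -1.87 ± 0.38, adjusted p = 0.00745). Col2a1, the collagen of cartilage, had 2.38, 2.10 and 1.36 CPM in D18N, against 15.7, 18.3 and 43.7 CPM in WT (log2 fold change -3.73 ± 0.70, adjusted p = 0.00693). The genotypes did not overlap in any marker named in this paragraph. 5 Schwann and glial genes were lower with the sex pattern term. With D18N replicate 1 as the only D18N library, 1 Schwann and glial gene was lower.

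Positional genes were called at a share near that of all genes. HoxA and HoxB genes were higher in 2 of 19 members and lower in 2, and HoxC and HoxD genes higher in 1 of 18 and lower in none. Hoxa9, expressed in the posterior trunk and limb, had 52.4, 45.6 and 40.3 CPM in D18N, against 17.5, 20.5 and 19.5 CPM in WT (log2 fold change 1.27 ± 0.17, adjusted p = 0.000906). Hoxc6, expressed more anteriorly, had 52.5, 50.3 and 62.3 CPM in D18N, against 36.8, 32.4 and 34.0 CPM in WT (log2 fold change 0.68 ± 0.12, adjusted p = 0.0042). Pax1, of the sclerotome and pectoral girdle, had 4.83, 3.30 and 2.27 CPM in D18N, against 15.7, 15.5 and 23.9 CPM in WT (log2 fold change -2.40 ± 0.39, adjusted p = 0.00352). Irx1, a homeobox patterning factor, had 96.2, 80.5 and 77.0 CPM in D18N, against 184, 183 and 146 CPM in WT (log2 fold change -1.01 ± 0.22, adjusted p = 0.00916). The maternally expressed RNA Meg3 had 1950, 1721 and 1307 CPM in D18N, against 599, 817 and 822 CPM in WT (log2 fold change 1.15 ± 0.22, adjusted p = 0.00531). Outside these lists, the nuclear RNA Malat1 had 2451, 2435 and 2316 CPM in D18N, against 580.1, 1354 and 808 CPM in WT (log2 fold change 1.39 ± 0.27, adjusted p = 0.00563). Lrp1, an endocytic receptor, had 4104, 3005 and 2934 CPM in D18N, against 1261, 2144 and 1842 CPM in WT (log2 fold change 0.94 ± 0.19, adjusted p = 0.00779). The genotypes did not overlap in any gene of this paragraph. The lower HoxA and HoxB count was 0 without D18N replicate 1.

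The levels of D18N can also be set beside those of the other altered genotypes, in comparisons that share the D18N libraries with the one above. Between D18N and Trex1-/-, 671 genes were higher (3.95% of those tested) and 484 lower (2.85%), and between D18N and p212fs 3418 were higher (20.1%) and 3153 lower (18.6%). Counts without single libraries are in the closing section. The thick filament list was higher in D18N in 15 of 16 members against both. Myh3 had 556, 224 and 239 CPM in D18N, 2.32, 1.21 and 1.39 CPM in Trex1-/-, 2.62 and 1.87 CPM in p212fs and 0.980, 0.978 and 2.23 CPM in WT, and the D18N libraries alone were above 10 CPM. The macrophage receptor list was lower in D18N in 9 of 13 members against Trex1-/- and in 10 of 13 against p212fs. Lyz2 had 89.3, 48.1 and 40.5 CPM in D18N, 153, 142 and 240.1 CPM in Trex1-/-, 397 and 526 CPM in p212fs and 645, 754 and 674 CPM in WT. The Trex1-/- libraries lay between the D18N and the p212fs libraries.

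None of the 27 antiviral effectors and none of the 16 GTPases passed between D18N and Trex1-/- in either direction. Their median log2 fold changes in D18N against Trex1-/- were -0.82 and -1.12. The Trex1-/- libraries were far apart, with summed antiviral levels of 2310, 9480 and 3400 CPM. Stat2 had 302, 246 and 225 CPM in D18N, 191, 462 and 247 CPM in Trex1-/-, 182 and 173 CPM in p212fs and 124, 109 and 90.4 CPM in WT (D18N against Trex1-/-, log2 fold change -0.22 ± 0.27, adjusted p = 0.68). Slfn5 had 87.5, 48.3 and 60.7 CPM in D18N, 46.8, 86.3 and 49.0 CPM in Trex1-/-, 11.6 and 19 CPM in p212fs and 16.5, 28.9 and 19.1 CPM in WT, and D18N was above p212fs (log2 fold change 2.10 ± 0.39, adjusted p = 0.00277). The D18N and Trex1-/- libraries overlapped in both genes. Slfn5 does not stand for all interferon lists against p212fs. There, 2 of the 27 antiviral effectors were higher in D18N and 2 were lower (list median -0.3). Their sums were 4140 and 3910 CPM in p212fs, above the 3390, 2820 and 2860 CPM of D18N. Chemokines had 3 of 17 lower in D18N and none higher (list median -1.42). GTPases had 1 of 16 higher (list median 0.46) and Schlafen genes 3 of 6 (list median 1.99), with none lower. A p that misses the threshold does not show that D18N and Trex1-/- act alike.

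Ccnd1 had 48.5, 35.4 and 40.6 CPM in D18N, 132, 151 and 164 CPM in Trex1-/-, 77.7 and 61.9 CPM in p212fs and 120.1, 117 and 112 CPM in WT. D18N was below Trex1-/- (log2 fold change -1.85 ± 0.14, adjusted p = 4.39e-05) and below p212fs (log2 fold change -0.75 ± 0.16, adjusted p = 0.00409, up to 0.0545 without p212fs replicate 1). Ddit4 had 279, 236 and 266 CPM in D18N, 124, 165 and 109 CPM in Trex1-/-, 122 and 127 CPM in p212fs and 118, 108 and 98.0 CPM in WT. D18N was above Trex1-/- (log2 fold change 0.97 ± 0.15, adjusted p = 0.00391) and above p212fs (log2 fold change 1.06 ± 0.17, adjusted p = 0.00133). Postn had 4632, 6062 and 6274 CPM in D18N, 2336, 2569 and 2425 CPM in Trex1-/-, 463 and 909 CPM in p212fs and 2329, 2529 and 2369 CPM in WT. D18N was above Trex1-/- (log2 fold change 1.21 ± 0.22, adjusted p = 0.00782) and p212fs (log2 fold change 3.04 ± 0.27, adjusted p = 7.27e-05). In these genes every D18N library lay outside the range of all 8 other libraries. Hoxa9 had 52.4, 45.6 and 40.3 CPM in D18N, 21.7, 18.6 and 24.7 CPM in Trex1-/-, 14.3 and 20.1 CPM in p212fs and 17.5, 20.5 and 19.5 CPM in WT. D18N was above Trex1-/- (log2 fold change 1.09 ± 0.17, adjusted p = 0.00324) and p212fs (log2 fold change 1.42 ± 0.19, adjusted p = 0.00055). Eln had 115, 77.9 and 70.7 CPM in D18N, 1494, 149 and 834 CPM in Trex1-/-, 122 and 124 CPM in p212fs and 492, 924 and 1005 CPM in WT. Elastin was lower in D18N than in Trex1-/- (log2 fold change -3.23 ± 0.68, adjusted p = 0.0232, up to 0.0988 without D18N replicate 2 or 3) and did not pass against p212fs (log2 fold change -0.49 ± 0.69, adjusted p = 0.605). Nuclear oxidative phosphorylation genes gave no call between D18N and Trex1-/- in 41 members, and 40 were lower in D18N than in p212fs.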

How the data were processed

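RNA-seq counts of 11 libraries from 4 genotypes of MEFs were used. Per the submitters' processing notes, fastp, HISAT2 and featureCounts were used with build GRCm39, with no versions given. The deposited values are raw read counts per gene. The strand setting of the counting is not given in the sources used here, so reads of overlapping and antisense genes cannot be told apart, and close paralogs can share reads. Of 55578 lines, 1654 name no gene (0.0804% to 0.129% of a library's counts) and were left out. Another 1597 lines repeat a name and were kept as separate entries, so the values of a named gene come from its first line. In the GENCODE annotation of GRCm38, Trex1 lies within exons of Atrip.

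In R 4.3.3, genes were filtered with filterByExpr (minimum count 10), scaled with TMM and tested with edgeR 4.0.16 by the quasi-likelihood test over all 11 libraries with 1 term per genotype, and p-values were adjusted by Benjamini-Hochberg over 16990 genes. The biological coefficient of variation was 22.5%. Higher and lower mean an adjusted p under 0.05. On simulated counts of 16990 genes for D18N against WT, 72% of 100 genes changed 2-fold and 100% of 100 genes changed 4-fold were recovered. There were 3 false calls. The changed genes were drawn only from well-counted genes, and all others had the same mean in every library. These figures therefore do not cover genes with few counts or data in which many genes differ. Folds of genes with 3 or fewer counts in a group come from summed counts, as ratios with exact 95% intervals, and against a sum of 0 a floor of 3 counts over the group was used. Such intervals cover counting error only.

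The members and gene lists were chosen with earlier results of these data known, so no pattern is independent support. Named genes were the given markers, Xist and a Y-linked gene, in each list up to 5 in each direction with the smallest p and up to 3 uncalled ones with the highest CPM, and the largest folds and CPM differences outside muscle and immune lists. Some genes that meet this rule are not reported here. Promoters came from the RefSeq table (GRCm38.p6, 27025 symbols) and were not placed on GRCm39. Length and GC content for the offset were found for 97.6% of the genes tested, in GENCODE annotation of GRCm38. Alternatives were RLE scaling, library totals, no filter, DESeq2 1.42.0, the 6 libraries alone, a replicate block, a sex pattern term, each library left out, and the offset.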

Additional observations from a re-analysis of the deposited data

How the results depend on the processing

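The counts of called genes depended on the libraries more than on the scaling. For D18N against WT, 4303 genes were called, 2379 with the sex pattern term and 693 with D18N replicate 1 as the only D18N library, and leaving out single libraries gave 1662 without D18N replicate 2 to 5350 without WT replicate 2. For D18N against Trex1-/-, 1155 were called, 280 with D18N replicate 1 alone and 2033 with DESeq2, and leaving out single libraries gave 406 without D18N replicate 2, 445 without Trex1-/- replicate 3, 769 without D18N replicate 3 and up to 1916 without Trex1-/- replicate 1. For D18N against p212fs, 6571 were called, 2509 with D18N replicate 1 alone, and leaving out single libraries gave 2674 without p212fs replicate 1, 3230 without p212fs replicate 2 and up to 7187 without Trex1-/- replicate 2. Why these counts moved was not tested. For D18N against WT, RLE scaling gave 4290, library totals 4308, no filter 3893, the 6 libraries alone 3761 and DESeq2 5094. Of the 134 named genes past the threshold, 114 kept their call whichever of the 6 libraries was left out, 127 with the sex pattern term, 129 with the length and GC offset, 123 with no filter and 74 with D18N replicate 1 as the only D18N library. C3, not called, passed with the sex pattern term at a log2 fold change of 1.22 (adjusted p = 0.0228).

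Uncalled genes changed sign as follows, with an adjusted p above the threshold in each setting that changed the sign. The log2 fold change of C3 was -0.01 with the replicate block and ran from -1.21 without D18N replicate 1 to 0.77 without D18N replicate 3, and that of Saa3 was -0.09 and ran from -1.33 to 0.79 under the same settings. That of Cdkn1a ran from -0.05 without D18N replicate 1 to 0.15 without D18N replicate 3, and that of Ldha was 0.04 with the sex pattern term.

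Libraries of D18N and WT with the same replicate number did not deviate together (correlations across genes of -0.00946, 0.0653 and -0.0868 for numbers 1, 2 and 3), so the numbers do not pair them. A replicate block gave 3801 called genes, 1822 higher and 1979 lower. Among the lists described it moved the lower mitosis count from 12 to 25, the higher myogenic regulator count from 6 to 3, the lower Wnt and FGF counts from 4 to 2 each and the lower ribosomal protein count from 2 to 0.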

Other observations

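Further epithelial, neuronal, matrix and mesenchymal genes of the lists also differed. Upk1b, a uroplakin of urothelium and mesothelium, had 1.42, 0.0569 and 0.567 CPM in D18N, against 8.93, 5.26 and 6.13 CPM in WT (log2 fold change -3.30 ± 0.58, adjusted p = 0.00433). Krt19, a keratin of simple and ductal epithelium, had 2.50, 5.06 and 4.54 CPM in D18N, against 9.79, 7.21 and 9.61 CPM in WT (log2 fold change -1.14 ± 0.27, adjusted p = 0.013). Dsp, the desmoplakin of cell junctions, had 4.15, 4.09 and 3.40 CPM in D18N, against 0.634, 0.550 and 0.380 CPM in WT (log2 fold change 2.88 ± 0.47, adjusted p = 0.00285). Col17a1, a collagen of epidermal hemidesmosomes, had 6.42, 3.58 and 4.03 CPM in D18N, against 0.807, 0.917 and 1.19 CPM in WT (log2 fold change 2.25 ± 0.34, adjusted p = 0.00194). Dcx, a microtubule protein of migrating neurons, had 9.82, 4.15 and 2.33 CPM in D18N, against 0.173, 0.183 and 0.543 CPM in WT (log2 fold change 4.13 ± 0.87, adjusted p = 0.00913). Emilin2, a glycoprotein of elastic fibres, had 271, 164 and 118 CPM in D18N, against 67.0, 63.4 and 58.3 CPM in WT (log2 fold change 1.55 ± 0.31, adjusted p = 0.00743). Msx1, a homeobox factor of limb mesenchyme, had 0.341, 1.08 and 0.794 CPM in D18N, against 1.96, 2.57 and 2.60 CPM in WT (log2 fold change -1.68 ± 0.38, adjusted p = 0.0108). Mcam, an adhesion molecule of endothelium and pericytes, had 40.1, 55.6 and 62.9 CPM in D18N, against 128, 92.5 and 91.6 CPM in WT (log2 fold change -0.98 ± 0.19, adjusted p = 0.00543). For each of these genes every D18N library lay outside the range of the WT libraries.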
